A study of Mus musculus with 12 samples.

Results

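Interleukin-6 (IL-6) family signalling was followed through 9 genes, covering its ligands Il6 and Lif, its receptor chains Il6ra, Il6st, Osmr and Lifr, the kinases Jak1 and Jak2, and the transcription factor Stat3. They were taken by gene symbol, and all 9 were among the 20194 genes of the RNA table. In the chromatin table they were the nearest annotated gene of 63 of 38244 peaks. The cytokines of this family bind a ligand-specific chain, such as the IL-6 receptor Il6ra, and signal through the shared chain gp130, encoded by Il6st. Gp130 pairs with itself, with the LIF receptor Lifr or with the oncostatin M receptor Osmr, and the bound kinases JAK1 and JAK2 then phosphorylate STAT3, which enters the nucleus and activates genes such as Socs3. In skeletal muscle the pathway is known both for regeneration and for the muscle loss that accompanies cancer, called cachexia.

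The RNA came from muscle of C57BL/6 mice, collected 22 days after a subcutaneous injection of 500000 LLC cells (a Lewis lung carcinoma line of mouse) or after PBS as the control, with 3 polyA libraries per group. The open chromatin came from C2C12 cells, a mouse myoblast line of C3H origin, differentiated to myotubes, with 3 ATAC-seq libraries per group. They were kept for 24 hours in medium conditioned by C26 cells (a mouse colon carcinoma line) or were controls, called control medium here. For the controls the labels give no time. Which muscle was taken is not stated, and the cultures carry the cell type label myoblast. Whether the 3 libraries of a group stand for different mice or wells is not stated either, so p-values rest on the spread between libraries, which may be technical. The limma fits used below share this spread across genes or peaks of similar level. In the ATAC values as deposited, the SE of a peak came from this shared spread and not from its own libraries.

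By a fit to the steps between FPKM values, the RNA libraries held 17.3 to 20.1 M tags in the LLC group and 17.0 to 18.9 M in the PBS group. By the file headers, the ATAC libraries held 12.8 to 18.2 M in C26 medium and 10.1 to 14.8 M in control medium. Markers of muscle fibres summed to 37915 to 43475 FPKM (tags scaled to the length of the gene and the depth of the library) in LLC muscle and 33069 to 38692 in PBS muscle. Other cell types varied within the groups: 8 genes of neutrophils and their granules summed to 5877, 10375 and 182 FPKM in LLC 1 to 3, against 123, 6205 and 11778 in PBS 1 to 3, and 4 epidermal keratins summed to 1120, 48.7 and 456 FPKM in LLC muscle, against 0.452, 4.79 and 78.5 in PBS muscle. In the myotube ATAC a peak lay within 1000 bp of the annotated start at 2 of 7 myogenic genes, Des and Myod1, and none was assigned there to Myog, Acta1, Ckm, Myh3 or Mef2c. Control library 1 stood apart, with 27.0% of its tags in peaks, against 12.0% to 13.5% in the 3 C26 libraries and 13.1% and 17.9% in controls 2 and 3.

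In LLC muscle the largest difference among the 7 genes with a mean of 1 FPKM or more was at the oncostatin M receptor Osmr, with a mean 3.46-fold that of PBS muscle, followed by Stat3 with 1.61-fold and Il6st with 1.38-fold. In each of these 3 genes every LLC library lay above every PBS library. Jak1, Jak2, Lifr and Il6ra overlapped between the groups, and both ligands were below 1 FPKM. No gene in the whole table passed an adjusted p of 0.05 in limma (0 of the 12981 genes that averaged 1 FPKM or more, 0.0%), so none of the 7 members tested did either. At an unadjusted p under 0.05, 3 members were higher and 0 lower, where 7.63% of all genes tested passed in either direction (755 higher and 236 lower). All LLC libraries were above all PBS libraries at 3 of the 7 members and at 9.5% of all genes, and below them at 0 of 7 and 3.94%. The 9 genes were chosen with earlier results of these data known, so these counts only describe them.

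Il6, the founding cytokine of the family, had 0.099, 0.636 and 0.528 FPKM in LLC 1 to 3, against 0.052, 0.186 and 0.28 FPKM in PBS 1 to 3. These values rest on 2, 12.5 and 12 recovered tags in LLC muscle and 1, 4 and 5.5 in PBS muscle (a read end of a pair counts as part of a tag). The lowest LLC library lay inside the PBS range, and no difference could be detected at this depth. Lif, the leukaemia inhibitory factor, which signals through Lifr and gp130, had 0.341, 0.209 and 0.143 FPKM in LLC muscle, against 0.352, 0.29 and 0.216 FPKM in PBS muscle, from 11.5 to 24.5 tags a library in LLC and 15 to 24 in PBS muscle. The Lif ranges overlapped, and neither ligand reached the mean of 1 FPKM asked for the test.

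Il6ra, the chain that binds IL-6, had 4.64, 4.995 and 5.36 FPKM in LLC muscle, against 2.77, 4.83 and 5.16 FPKM in PBS muscle. LLC 1 and LLC 2 lay inside the PBS range, which PBS 1 stretched downward, and the limma log2 difference on log2(FPKM + 1) was 0.22 (SE 0.21, adjusted p = 1.0). Il6st, the shared signal chain gp130, had 42.7, 42.9 and 52.1 FPKM in LLC muscle, against 40.4, 32.9 and 26.2 FPKM in PBS muscle. The groups did not overlap, but PBS 1 came close to the lowest LLC library. Its means were 45.9 ± 5.38 FPKM in the LLC group and 33.1 ± 7.09 FPKM in the PBS group (SD, n = 3 each), a limma log2 difference of 0.47 (SE 0.19, 95% interval 0.01 to 0.93, adjusted p = 0.633).

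Osmr, which pairs with gp130 to receive oncostatin M, had 10.03, 10.3 and 13.7 FPKM in LLC muscle, against 3.53, 3.86 and 2.44 FPKM in PBS muscle. Every LLC library was well above every PBS library. Its means were 11.3 ± 2.03 FPKM in the LLC group and 3.28 ± 0.744 FPKM in the PBS group (SD, n = 3 each), and the limma log2 difference of 1.53 (SE 0.19, 95% interval 1.06 to 2.0) ranked 20 among all genes by p, with an adjusted p of 0.139. Lifr, the partner of gp130 for LIF, had 7.75, 8.28 and 9.66 FPKM in LLC muscle, against 9.12, 7.97 and 6.87 FPKM in PBS muscle. Its groups overlapped, with a limma log2 difference of 0.09 (SE 0.14, adjusted p = 1.0).

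Jak1, the kinase most used by gp130, had 39.04, 37.7 and 44.7 FPKM in LLC muscle, against 43.3, 42.1 and 36.7 FPKM in PBS muscle. Jak2, a second kinase bound to these receptors, had 15.3, 15.6 and 16.3 FPKM in LLC muscle, against 15.8, 17.6 and 17.8 FPKM in PBS muscle. Both kinases overlapped between the groups, with limma log2 differences of -0.01 (SE 0.12) for Jak1 and -0.11 (SE 0.1) for Jak2. Stat3 itself had 28.4, 35.8 and 29.5 FPKM in LLC muscle, against 17.97, 20.51 and 19.7 FPKM in PBS muscle. The 3 PBS libraries lay close together and all below the LLC range, and the means were 31.2 ± 4.02 FPKM in the LLC group and 19.4 ± 1.29 FPKM in the PBS group (SD, n = 3 each). The limma log2 difference of Stat3 was 0.66 (SE 0.13, 95% interval 0.34 to 0.97, adjusted p = 0.257).

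**Figure D1:**
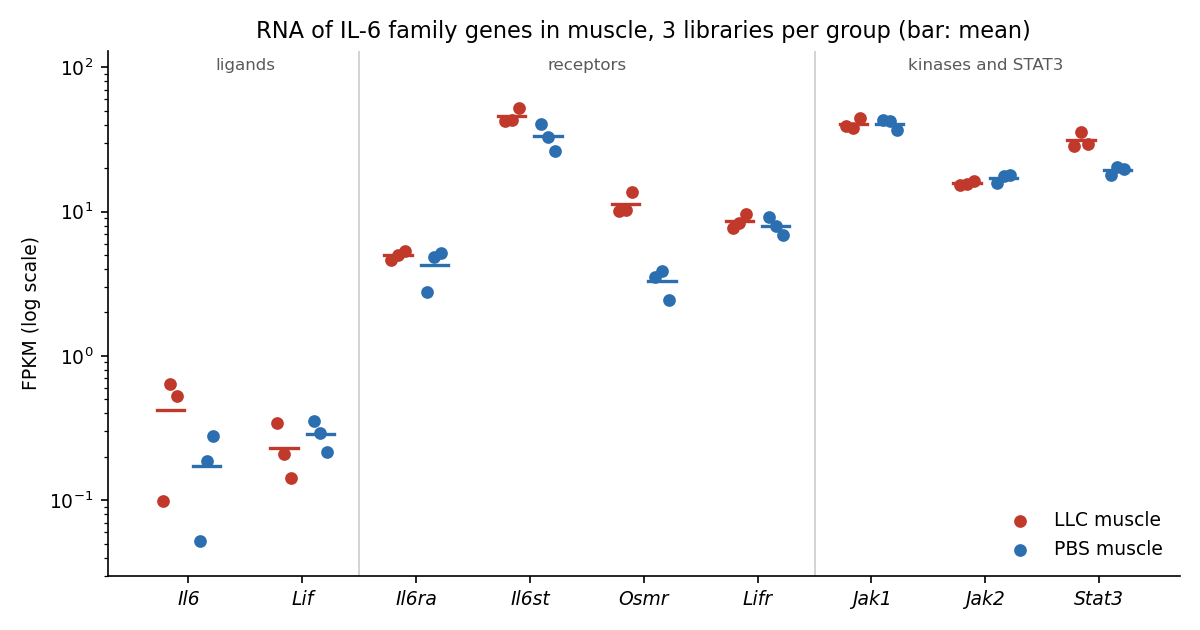
RNA level (FPKM, log scale) of the 9 genes in each of 3 LLC and 3 PBS muscle libraries (points), with group means (bars). Osmr, Stat3 and Il6st are the genes whose LLC points all lie above their PBS points, and Il6 and Lif stay below 1 FPKM in every library.

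Set against each other within a library, the receptor chains differed in proportion between the groups. In LLC muscle Osmr stood above Lifr, at 1.29, 1.24 and 1.42 times its FPKM, against 0.387, 0.484 and 0.355 times in PBS muscle. The Osmr level relative to Il6st was 0.246 ± 0.0145 in the LLC group and 0.0993 ± 0.0159 in the PBS group (SD, n = 3 each). Stat3 stood at 0.727, 0.95 and 0.659 times the FPKM of Jak1 in LLC muscle, against 0.415, 0.487 and 0.536 times in PBS muscle. The groups did not overlap in any of these 3 ratios. The ratio of Il6ra to Il6st did overlap, with 0.103 to 0.117 in LLC and 0.0685 to 0.197 in PBS muscle. With 3 libraries against 3, a two-sided exact permutation test cannot give a p under 0.1, so no test of the ratios was made.

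By mean FPKM, the order in LLC muscle was Il6st, Jak1, Stat3, Jak2, Osmr, Lifr, Il6ra, Il6 and Lif, and in PBS muscle it was Jak1, Il6st, Stat3, Jak2, Lifr, Il6ra, Osmr, Lif and Il6. The ranges of Il6st and Jak1 overlapped in both groups, as did those of Il6 and Lif, while Il6ra and Osmr overlapped in PBS muscle. The other neighbours in each order did not overlap. Osmr was thus the fifth of 9 in LLC muscle and the seventh in PBS muscle.

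The RNA was bulk, so more cells of a type and more RNA per cell cannot be told apart. Endothelial markers (Pecam1, Cdh5, Cldn5, Kdr, Tie1, Tek, Emcn and Vwf) summed to 215, 239 and 260 FPKM in LLC muscle, against 131, 134 and 115 FPKM in PBS muscle. Of these 8, 7 were above 0 in log2 difference, beside 6875 of all 12981 genes tested, and none was at 0 in a library. At 5 of the 8 every LLC library was above every PBS library, as at 9.5% of all genes tested. Markers of smooth muscle and pericytes summed to 218 to 254 FPKM in LLC and 149 to 216 FPKM in PBS muscle, with 5 of 5 above 0 and 2 with no overlap. The 8 muscle fibre markers were all above 0 too, 1 with no overlap, though their sums overlapped. Fibroblast markers summed to 604 to 897 FPKM in LLC and 966 to 1621 FPKM in PBS muscle, with 1 of 6 above 0 and 2 lower with no overlap. Tendon markers were lower, with sums of 49.8, 13.6 and 4.25 FPKM in LLC muscle, against 102, 106 and 74.7 FPKM in PBS muscle. Of 3 tested, 0 were above 0 and 2 were lower with no overlap. Macrophage markers overlapped at 123 to 156 FPKM in LLC and 105 to 190 FPKM in PBS muscle. The part of these cell types in the Osmr, Stat3 and Il6st values was not tested. The 5 genes most like Osmr over the 6 libraries, among 8221 that averaged 5 FPKM or more, were Sox17, Adcy4, Sema3g, Ecscr and B3gnt3, at root mean square differences of 0.0993 to 0.176 between centred log2(FPKM + 1) values. Sox17, the nearest, had 7.89, 8.92 and 10.9 FPKM in LLC muscle, against 3.25, 3.51 and 2.29 FPKM in PBS muscle. Stat3 and Il6st ranked 207 and 284 in likeness to Osmr, at 0.503 and 0.543.

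Around the 9 genes, 61 further genes of the pathway were grouped by role, and 53 of them were tested. Of these, 36 had a log2 difference above 0 and 17 below, with a median of 0.07, beside 6875 above and 6106 below and a median of 0.014 over all genes tested. In 11 of the 53 every LLC library lay above every PBS library, and in 1 below, where 9.5% and 3.94% of all genes tested did. The lists were chosen with earlier results of these data known, so these counts only describe them. Among other ligands 6 of 9 were tested (4 above 0, 2 below, median 0.03), and the oncostatin M gene Osm, a ligand of Osmr, had 1.62, 2.34 and 0.354 FPKM in LLC muscle, against 0.124, 1.26 and 1.76 FPKM in PBS muscle. Osm overlapped between the groups and was lowest in LLC 3 and PBS 1, the libraries that were also lowest in neutrophil markers; the part of neutrophils in it was not tested. Among 5 other receptors and shedding proteases (2 above 0, 3 below, median -0.19), the interleukin-11 receptor Il11ra1 had 24.6, 24.1 and 19.7 FPKM in LLC muscle, against 26.3, 34.9 and 26.5 FPKM in PBS muscle, with every LLC library below every PBS library (limma adjusted p = 0.755).

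The other JAKs and STATs, 8 genes with 6 above 0 and 2 below (median 0.07), held 1 gene whose groups did not overlap. Of all genes tested, 9.5% were higher and 3.94% lower with no overlap. The 1 gene on the list was Jak3, the kinase of the common gamma chain of cytokine receptors, at 9.89, 10.7 and 11.5 FPKM in LLC muscle, against 3.69, 5.38 and 5.28 FPKM in PBS muscle (limma log2 difference 1.03, SE 0.16, adjusted p = 0.166). Among 15 inhibitors, 8 were above 0 and 7 below (median 0.01). Socs3, the feedback inhibitor that binds gp130 and JAKs, had 11.4, 13.99 and 11.03 FPKM in LLC muscle, against 2.8, 3.67 and 3.54 FPKM in PBS muscle. Every LLC library of Socs3 was far above every PBS library, with a limma log2 difference of 1.6 (SE 0.15) and an adjusted p of 0.108. Socs1, another inhibitor of JAKs, had 1.13, 1.78 and 1.44 FPKM in LLC muscle, against 1.77, 2.46 and 4.73 FPKM in PBS muscle, and the groups overlapped narrowly.

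Of 24 known STAT3 targets 19 were tested, and 16 of them were above 0 and 3 below, with a median log2 difference of 0.86. The list was chosen with earlier results of these data known, so its counts and median only describe it. PBS 1 was the lowest PBS library in all tested targets but Fos, Serpina3n, Vegfa and Hif1a. Its median over all genes was 1.988 FPKM, against 3.12 in PBS 2 and 3.117 in PBS 3. How far the list median rests on PBS 1 was not tested. In 9 of the 19 every LLC library lay above every PBS library and in 0 below, where 9.5% and 3.94% of all genes tested did, and none passed the adjusted threshold. Those with the smallest p were Hif1a, the oxygen-sensing transcription factor; Il4ra, the interleukin-4 receptor chain; Serpina3n, a secreted protease inhibitor; and Bcl3, a partner of NF-kB. Hif1a had 17.6, 15.9 and 19.5 FPKM in LLC muscle, against 10.98, 10.9 and 9.83 FPKM in PBS muscle (limma log2 difference 0.69, SE 0.12, adjusted p = 0.199). Il4ra had 12.6, 15.95 and 15.7 FPKM in LLC muscle, against 2.6, 5.44 and 6.07 FPKM in PBS muscle (limma log2 difference 1.52, SE 0.28, adjusted p = 0.223). Serpina3n had 17.1, 28.3 and 19.7 FPKM in LLC muscle, against 10.3, 11.1 and 8.83 FPKM in PBS muscle (limma log2 difference 1.01, SE 0.21, adjusted p = 0.275). Bcl3 had 7.61, 7.97 and 6.68 FPKM in LLC muscle, against 1.79, 3.81 and 4.03 FPKM in PBS muscle (limma log2 difference 1.05, SE 0.25, adjusted p = 0.365). In each of these 4 genes the groups were apart. Of the acute-phase genes of liver, Saa1, Saa2, Fga, Fgb and Fgg were below 0.4 FPKM in every library. Hp, another, had 119, 208 and 46.2 FPKM in LLC muscle, against 41.8, 147 and 189 FPKM in PBS muscle, and its groups overlapped. Lrg1 had 76.5, 121 and 60.3 FPKM in LLC muscle, against 14.5, 36.6 and 47.9 FPKM in PBS muscle, with the groups apart. Lcn2, a STAT3 target that neutrophils also carry in their granules, had 360.2, 678 and 11.1 FPKM in LLC muscle, against 10.03, 379 and 757 FPKM in PBS muscle, and again LLC 3 and PBS 1 were lowest.

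**Figure D2:**
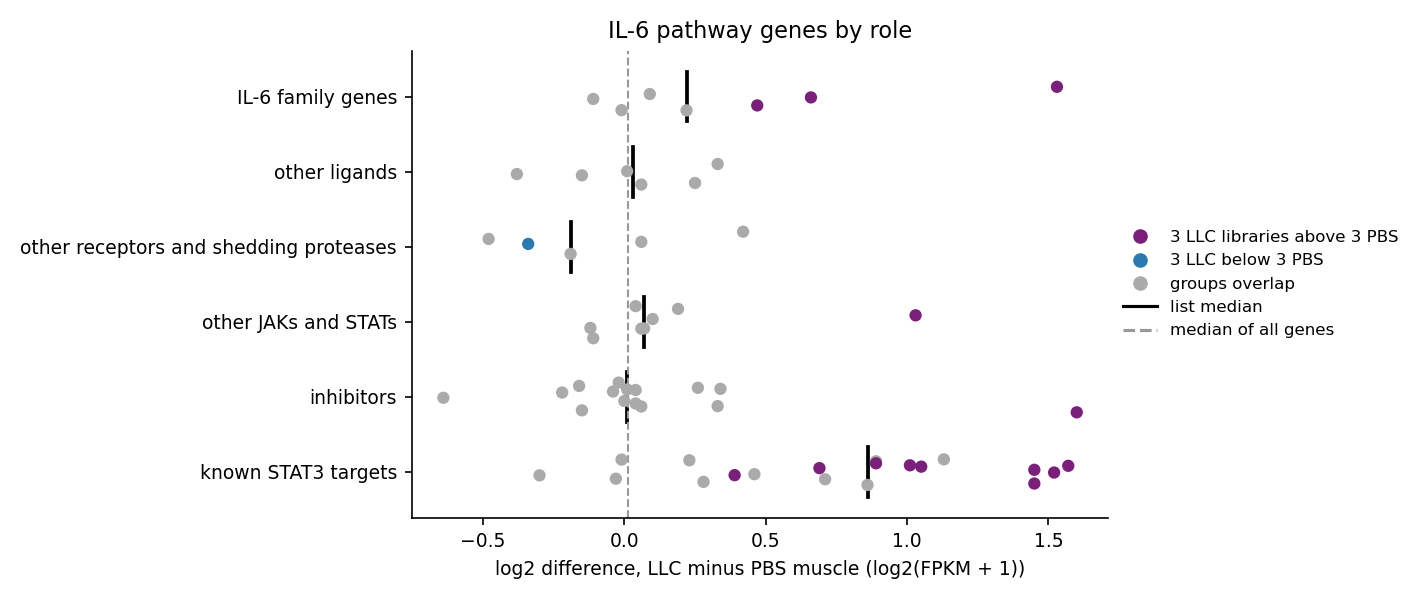
Limma log2 difference (LLC minus PBS muscle, on log2(FPKM + 1)) of each tested gene, grouped by role in the pathway, with the median of each list (black bar) and of all genes (dashed line). Coloured points have groups that do not overlap. They are 3 of 7 IL-6 family genes, Jak3 among the JAKs and STATs, Socs3 among the inhibitors and 9 of 19 STAT3 targets, with Il11ra1 the 1 gene lower. Of all genes tested, 9.5% were higher and 3.94% lower with no overlap.

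In myotubes kept in C26 medium, 6 of the 8 peaks nearest to Il6 were called more accessible than in control medium once the libraries were scaled to each other. All 6 were distal, and 22.9% of all distal peaks tested were called higher in this way. The peak over the Il6 promoter was not called, and as deposited 0 of the 8 were called. Of the 6 called after scaling, 3 were in the table through peak lists of C26 medium alone, so a higher value there is partly set by how the peaks were found. Single distal peaks nearest to Osmr, Stat3, Jak1 and Il6st, 2 nearest to Lif, 3 nearest to Il6ra and 4 nearest to Lifr were also called higher after scaling. The lowest difference of all was at another distal peak nearest to Lifr. All 63 peaks were tested, 10 of them within 1000 bp of an annotated start (promoter peaks, 2 of them at Lif) and 53 distal, with 36 of the 53 called intergenic by the authors. The assignment is to the nearest start, so a distal peak need not act on the gene it is named for.

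The values are tags in a peak per 10 M tags of the library, and in them the median peak of the whole table was lower in C26 medium by a log2 difference of -0.54. As deposited, 0 member peaks were called higher and 2 lower (limma adjusted p under 0.05), where 1.15% and 1.88% of all 37358 peaks tested were called. Median-of-ratios scaling, which brings the median difference to -0.02, called 19 member peaks higher and 7 lower, where 17.0% and 12.7% of all peaks were called (29.8% in either direction). The 26 of 63 member peaks called are to be read against that background. Without control 1, the scaled fit called 16 higher and 7 lower. Log2 differences below are from the scaled fit, and the values given for each library are as deposited, where control 1 is often the highest of the 6.

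Promoter and distal peaks were counted apart. After scaling, 0 of the 10 member promoter peaks were called higher and 1 lower, where 2.51% and 21.2% of all 10777 promoter peaks tested were. Of the 53 distal member peaks 19 were called higher and 6 lower, where 22.9% and 9.28% of all 26573 distal peaks were. By gene, the counts called higher and lower were 6 and 0 of 8 for Il6, 2 and 3 of 12 for Lif, 3 and 0 of 7 for Il6ra, 1 and 1 of 4 for Il6st, 1 and 1 of 7 for Osmr, 4 and 1 of 15 for Lifr, 1 and 0 of 5 for Jak1, 0 and 1 of 3 for Jak2, and 1 and 0 of 2 for Stat3.

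**Figure D3:**
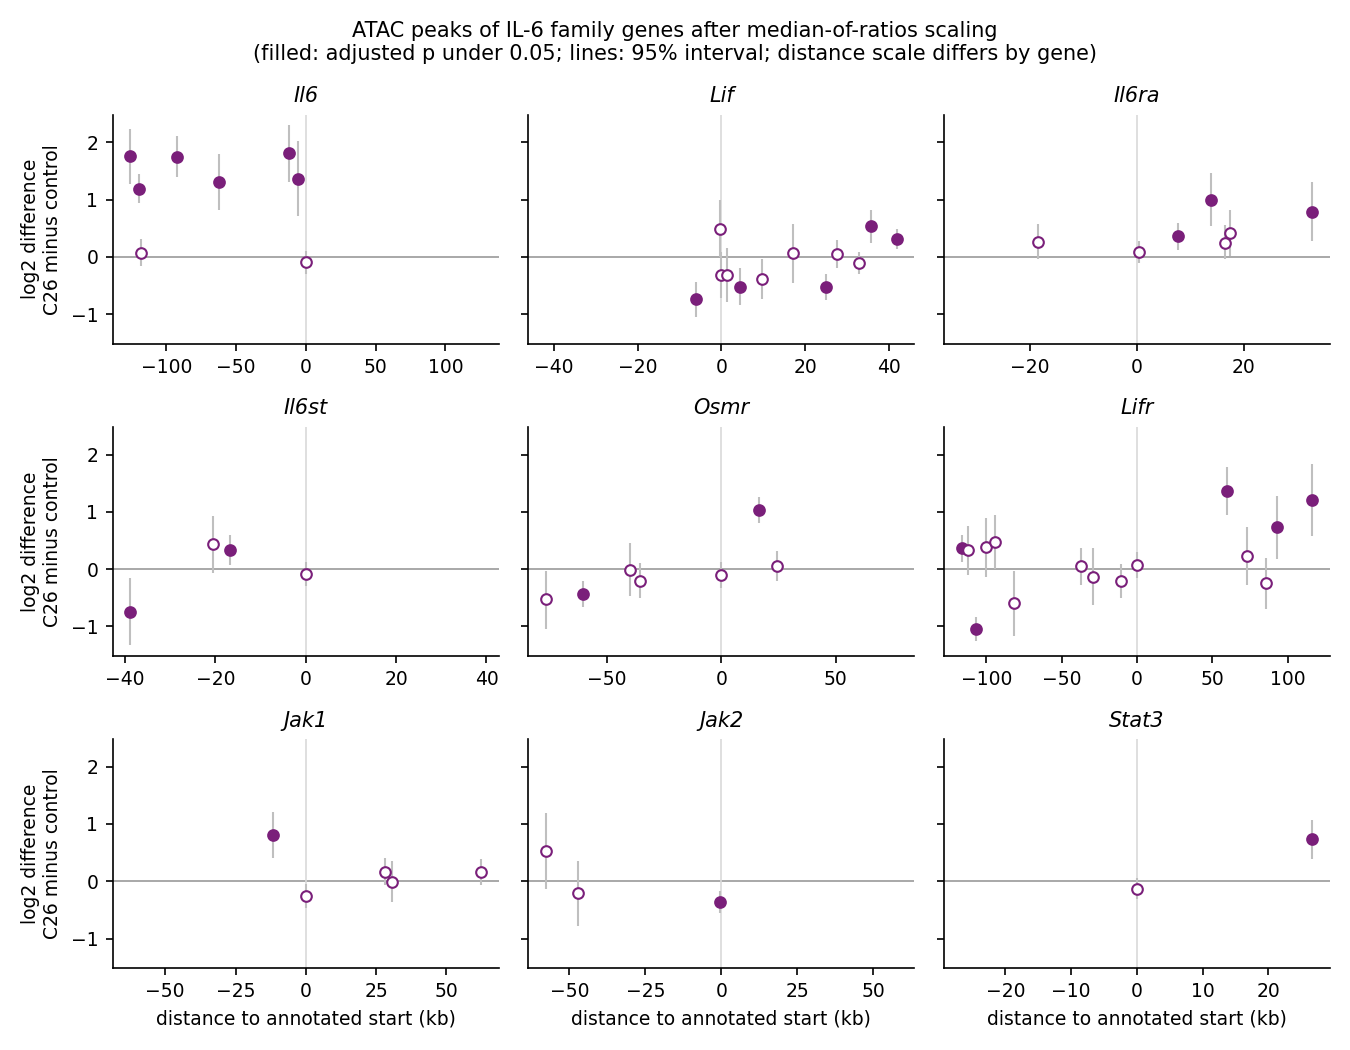
Log2 difference in ATAC signal (C26 minus control medium, median-of-ratios scaling, with 95% intervals) of each of the 63 peaks against its distance to the nearest annotated start of its gene in kb. Lif and Lifr peaks were measured from more than 1 start, so peaks drawn close together can lie apart. Filled points passed an adjusted p of 0.05: 6 of the 7 distal Il6 peaks sit between 1.19 and 1.81, and the Il6 promoter peak sits at -0.09.

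The promoter sequences of Il6, with 6 of 7 distal peaks but not the promoter peak called after scaling, and of Osmr, Il6st and Stat3, the genes with the larger RNA differences, are shown. Every base of each lay within the promoter peak of its gene, as did those of Jak1, Jak2 and 1 of 2 Lifr windows. Each is the 250 bases before the annotated start in RefSeq on GRCm38.p6, read 5′ to 3′ on the gene's strand, with motif matches in capitals. They lie at chr5:30012864-30013113 on the plus strand (Il6), chr15:6874314-6874563 on the minus strand (Osmr), chr13:112463820-112464069 on the plus strand (Il6st) and chr11:100939541-100939790 on the minus strand (Stat3).
Il6: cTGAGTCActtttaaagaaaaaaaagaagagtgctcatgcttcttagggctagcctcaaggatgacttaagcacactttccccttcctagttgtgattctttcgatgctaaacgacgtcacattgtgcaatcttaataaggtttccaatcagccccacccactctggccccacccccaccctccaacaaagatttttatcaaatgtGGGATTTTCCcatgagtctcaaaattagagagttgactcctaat
Osmr: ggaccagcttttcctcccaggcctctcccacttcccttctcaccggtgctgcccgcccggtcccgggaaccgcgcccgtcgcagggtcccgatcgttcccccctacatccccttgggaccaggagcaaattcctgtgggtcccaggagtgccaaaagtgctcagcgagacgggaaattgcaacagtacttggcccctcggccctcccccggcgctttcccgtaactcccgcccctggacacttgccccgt
Il6st: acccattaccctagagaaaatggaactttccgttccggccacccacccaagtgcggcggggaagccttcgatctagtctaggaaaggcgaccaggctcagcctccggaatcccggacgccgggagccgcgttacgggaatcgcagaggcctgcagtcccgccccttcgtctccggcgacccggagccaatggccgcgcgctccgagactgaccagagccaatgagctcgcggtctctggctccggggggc
Stat3: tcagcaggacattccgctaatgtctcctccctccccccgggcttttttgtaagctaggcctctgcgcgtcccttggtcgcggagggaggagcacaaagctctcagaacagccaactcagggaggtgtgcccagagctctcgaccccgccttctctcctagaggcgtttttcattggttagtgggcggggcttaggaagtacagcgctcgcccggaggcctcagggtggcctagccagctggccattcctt

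The capitals in the Il6 window mark an AP-1 match (TGANTCA) that starts 249 bases before the annotated start and an NF-kB match (GGGA and TTCC with any 2 bases between) that starts 44 bases before it. Searched on both strands, these letters occur in 6.75% and 1.21% of all 32851 RefSeq promoter windows of this length. The STAT motif TTCNNNGAA, which occurs in 7.02% of windows, had no match in the windows of the 9 genes, and neither had TATAAA (12.4%). Lif held an AP-1 match and Jak1 a match to the CRE motif TGACGTCA (1.55% of windows). The GC content was 42.8% in the Il6 window, against 66.0% in those of Osmr and Il6st, 60.8% in that of Stat3 and a median of 52.4% over all windows. A match describes letters in the window and shows no binding. Only these exact letters were searched, so the lack of a match does not show that a site is missing.

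The promoter peak of Il6 (chr5:30012649-30013600, mm10) had 85.5, 73.2 and 68.1 tags per 10 M in C26 medium, against 176, 77.96 and 115 in control medium. As deposited the lowest control lay among the C26 values, and the scaled log2 difference was -0.09 (SE 0.10, limma adjusted p = 0.522). The 6 distal peaks that were called higher lay 125.6, 119.7, 92.5, 62.0, 12.0 and 5.9 kb upstream of the start. A peak 118.3 kb upstream, close to the second of these, was not called, at 0.07 (SE 0.12, limma adjusted p = 0.667).

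The peak 92.5 kb upstream (chr5:29920150-29921092) had 40.6, 48.2 and 40.4 tags per 10 M in C26 medium, against 20.6, 12.8 and 20.8 in control medium. The groups did not overlap even as deposited, and the scaled log2 difference was 1.75 (SE 0.18, limma adjusted p = 5.08e-11). The peak 12.0 kb upstream (chr5:30000842-30001423) had 22.6, 21.5 and 26.4 tags per 10 M in C26 medium, against 12.1, 6.08 and 9.39 in control medium. It too was apart in all libraries, with the largest scaled log2 difference of the 63 peaks, 1.81 (SE 0.25, limma adjusted p = 8.43e-08). Both of these peaks, and the one 5.9 kb upstream, were in all 3 peak lists of C26 medium and in none of control medium, as were 2.39% of all peaks. The fourth member peak of this kind was the one 116.3 kb downstream of a Lifr start, and 0 member peaks were in all 3 control lists and no C26 list, as were 1.68% of all peaks.

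The peak 119.7 kb upstream of Il6 (chr5:29893068-29893713), its strongest distal peak in C26 medium, had 65.9, 49.98 and 66.2 tags per 10 M in C26 medium, against 56.7, 27.3 and 34.1 in control medium. Control 1 lay inside the C26 range as deposited, while controls 2 and 3 were below it, and the scaled log2 difference was 1.19 (SE 0.13, limma adjusted p = 1.52e-10). At 125.6 kb upstream (chr5:29887300-29887712) the values were 22.2, 26.4 and 25 tags per 10 M in C26 medium, against 17.9, 6.75 and 7.41 in control medium, with a scaled log2 difference of 1.76 (SE 0.24, limma adjusted p = 1.16e-07). The weakest of the 6 by height, 5.9 kb upstream (chr5:30007091-30007375), had 10.5, 12.8 and 12.1 tags per 10 M in C26 medium, against 10.3, 4.05 and 4.94 in control medium. It lies within the span of A230098N10Rik, a long noncoding RNA gene that RefSeq places across Il6, and had a scaled log2 difference of 1.36 (SE 0.33, limma adjusted p = 0.00106). Without control 1 all 6 remained past the threshold, with scaled log2 differences of 1.20 to 1.88.

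A ratio taken within each library does not depend on how libraries are scaled. It does depend on which peaks are in the table, and 3 of the 7 distal Il6 peaks were in it through C26 lists alone, so the ratio was taken over peaks found in all 6 lists. For Il6 these were the promoter peak (952 bp) and the distal peaks 119.7 and 118.3 kb upstream (1028 bp in all), and their tags stood at 1.31, 1.37 and 1.7 times those of the promoter in C26 medium, against 0.88, 0.931 and 0.871 times in control medium. Every C26 library was above every control. Over all 14043 distal and 8939 promoter peaks of this kind the ratio was 1.25, 1.27 and 1.29 in C26 medium, against 1.06, 1.09 and 1.06 in control medium, so the direction at Il6 was also that of the whole table, and whether Il6 differed from it was not tested. Over all 7 distal peaks (3636 bp in all) the Il6 ratio was 2.67, 3.15 and 3.59 in C26 medium, against 1.35, 1.46 and 1.3 in control medium, values that the choice of peaks partly sets. The choice of peaks found in all 6 lists was made after the data were seen.

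**Figure D4:**
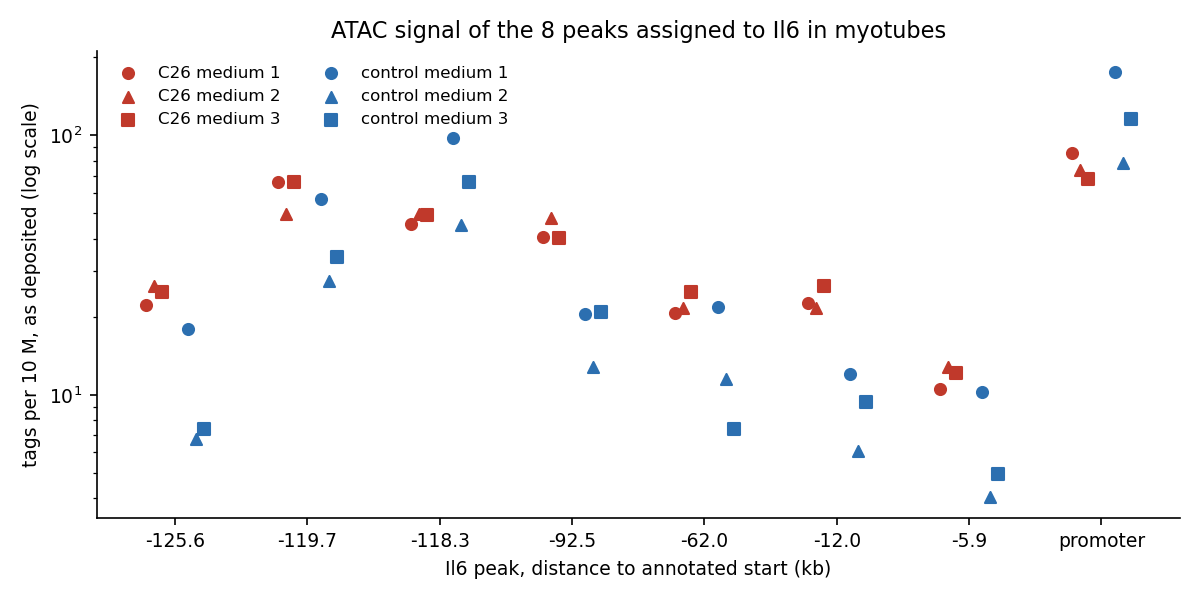
ATAC signal (tags per 10 M as deposited, log scale) of the 8 peaks nearest to Il6 in each of 3 C26 medium and 3 control medium libraries, ordered by distance to the annotated start in kb. In the distal peaks other than the one at -118.3 kb controls 2 and 3 lie below the C26 libraries, and at the promoter the highest point is control 1, at 176.

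For Lif, whose product acts through Lifr and gp130, the promoter peaks were not called and the 12 peaks went both ways, with scaled log2 differences of -0.74 to 0.54. The lowest was 6.1 kb upstream (chr11:4251215-4251801), at 23.02, 21.5 and 23.6 tags per 10 M in C26 medium, against 96.1, 36.1 and 49.9 in control medium. The groups were apart as deposited, where this was 1 of the 2 member peaks called lower (limma log2 difference -1.26, adjusted p = 0.0431), and the scaled log2 difference was -0.74 (SE 0.15, limma adjusted p = 0.000111). The peaks 35.8 and 41.9 kb downstream were called higher, at scaled log2 differences of 0.54 and 0.32. Those 4.5 kb downstream, in the 3′ UTR, and 25.1 kb downstream were called lower, at -0.52 each. Lif has more than 1 annotated start, and each distance is to the nearest. For the peak 6.1 kb upstream this was the start near the promoter peak at chr11:4257162-4257394. For these downstream peaks it was a later start, at the promoter peak chr11:4266491-4267012.

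The peaks of Il6ra, the IL-6 binding chain, all had scaled log2 differences above 0 (0.09 to 1.0), although 5 of the 7 were below 0 as deposited, and 3 of its 7 were called higher, all in introns. The highest of these, 13.9 kb into the gene (chr3:89899075-89899422), had 20.3, 20.1 and 21.97 tags per 10 M in C26 medium, against 18.3, 13.8 and 11.9 in control medium. Its groups were apart as deposited, with a scaled log2 difference of 1.0 (SE 0.23, limma adjusted p = 0.000702). Il6st had 4 peaks, and its promoter peak had 81.6, 75.7 and 77.7 tags per 10 M in C26 medium, against 153, 84.4 and 136 in control medium, a scaled log2 difference of -0.09 (SE 0.10, limma adjusted p = 0.538). A low peak 38.8 kb upstream of Il6st, with 7 to 22.5 tags a library, was called lower at -0.74 (SE 0.29, limma adjusted p = 0.0486). In edgeR it did not pass the threshold (edgeR adjusted p = 0.058). One 16.7 kb upstream was called higher at 0.34 (SE 0.13, limma adjusted p = 0.0419). Without control 1 the peak at 16.7 kb was no longer past the threshold, and neither were Il6ra at 7.7 kb and Lifr at 116.4 kb upstream, with limma adjusted p-values of 0.0938, 0.0634 and 0.101.

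Osmr and Lifr are neighbours on chromosome 15, with long noncoding RNA genes of RefSeq between them, and a number of the peaks in this stretch were nearest to one or the other. At the Osmr promoter (chr15:6873862-6875034) the peak had 45.7, 54.5 and 54.7 tags per 10 M in C26 medium, against 118, 58.4 and 74.6 in control medium, with a scaled log2 difference of -0.10 (SE 0.11, limma adjusted p = 0.514). The strongest Osmr peak in C26 medium was in intron 2 of 17, 16.4 kb into the gene (chr15:6857530-6858271), with 76.1, 69.8 and 76.6 tags per 10 M, against 84.4, 34.4 and 48.4 in control medium. Control 1 was the highest of the 6 there as deposited and controls 2 and 3 the lowest, and the scaled log2 difference was 1.03 (SE 0.11, limma adjusted p = 2.39e-10; 1.09 without control 1). A peak 60.4 kb upstream of Osmr was called lower, at -0.43 (SE 0.12, limma adjusted p = 0.00342).

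The largest fall of the 63 peaks was 106.7 kb upstream of the Lifr start used for it (chr15:7022434-7023277), within the span of the noncoding gene Gm30559. RefSeq places the whole Lifr gene at chr15:7090610-7197489, so its span begins nearer to this peak than that start. The peak had 44.5, 49.6 and 54.9 tags per 10 M in C26 medium, against 202, 112 and 148 in control medium. Every C26 library was far below every control, and the peak was called both as deposited (limma log2 difference -1.58, adjusted p = 0.00145) and after scaling (-1.05, SE 0.10, limma adjusted p = 1.15e-11). On the other side of Lifr, 60 kb downstream of a later annotated start and between the end of Lifr and the gene Egflam (chr15:7200409-7200696), a peak had 28.5, 26.03 and 26.9 tags per 10 M in C26 medium, against 21.5, 10.8 and 13.4 in control medium. It was apart as deposited and had a scaled log2 difference of 1.36 (SE 0.21, limma adjusted p = 8.32e-07). Peaks 93.2 and 116.3 kb downstream, in introns of Egflam, were also called higher, at 0.73 and 1.21. The Lifr promoter peak had a scaled log2 difference of 0.07 (SE 0.12, limma adjusted p = 0.677).

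Among the kinases, Jak1 had 1 of 5 peaks called, 11.5 kb upstream (chr4:101276591-101277046), with 24.6, 23.3 and 25.8 tags per 10 M in C26 medium, against 36.6, 11.8 and 18.3 in control medium. Control 1 was highest and controls 2 and 3 lowest, and the scaled log2 difference was 0.80 (SE 0.20, limma adjusted p = 0.00162). Jak2 had 1 of 3 peaks called, its promoter peak (chr19:29251019-29251914), which was lower at 100.3, 72.5 and 84.9 tags per 10 M in C26 medium, against 238, 115 and 148 in control medium (scaled log2 difference -0.37, SE 0.10, limma adjusted p = 0.00263). Stat3 had 2 peaks, and the one in intron 1 of 23, 26.7 kb into the gene (chr11:100912647-100913072), had 36.7, 26.4 and 45.3 tags per 10 M in C26 medium, against 42.4, 26.7 and 24.7 in control medium. These overlapped as deposited, and the scaled log2 difference was 0.73 (SE 0.17, limma adjusted p = 0.000605). The Stat3 promoter peak had 109, 97.9 and 100.3 tags per 10 M in C26 medium, against 239, 119.8 and 149 in control medium, a scaled log2 difference of -0.13 (SE 0.09, limma adjusted p = 0.302).

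Side by side, the genes with the larger RNA differences in LLC muscle (Osmr, Stat3 and Il6st) had no promoter peak called in C26-treated myotubes. After scaling, Osmr and Stat3 each had an intronic peak called higher and Il6st a distal peak upstream. Osmr and Il6st also each had a distal peak called lower. Of all distal peaks tested, 22.9% were called higher and 9.28% lower in this way. As deposited, no peak of these genes was called. Il6 had most of its distal peaks called higher in the myotubes after scaling, but none as deposited, and fewer than 13 tags in any muscle library. The assays used different tumour cells, and tissue against a cultured line, so their values were not tested against each other. Among the other pathway genes with a promoter peak, the scaled fit called higher both ligands that had one, Il11 and Clcf1, and called higher 0 and lower 1 of 3 other receptors and shedding proteases (Adam10), 2 and 5 of 14 inhibitors, 0 and 0 of 6 other JAKs and STATs, and 1 and 4 of 15 STAT3 targets, where 222 and 2215 of all 10147 genes with a promoter peak were called.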

How the data were processed

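PolyA RNA and open chromatin were measured in 6 libraries each, 3 per group. Per the file headers, the authors computed FPKM in HOMER over exons of mm10 RefSeq genes, counting reads of both strands, so antisense genes cannot be separated. The deposited ATAC signal is the number of tags in each merged peak after every library was brought to 10 M tags, as the file headers state. The submitters' processing notes also name HISAT2, Bowtie2, MACS2 and DESeq2; for their settings nothing is given in the sources used here.

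The 12981 of 20194 genes averaging 1 FPKM or more, and the 37358 of 38244 peaks averaging 5 or more, were tested on log2(value + 1) with limma 3.58.1 in R 4.3.3 (lmFit and eBayes with trend, two-sided, Benjamini-Hochberg over all features, threshold 0.05), which understates the change of low values. Products of value, depth and, for FPKM, length fell on whole read steps for 100% of values checked within a tolerance of 0.1. For the RNA the depth was itself fitted to give whole steps at low values, so this share is no check of it. A step was taken as a read end of a pair. The recovered reads were tested with edgeR 4.0.16 as an alternative, which called 0 genes, and 6571 peaks higher and 4783 lower. Its fit and median-of-ratios scaling remove the shift of the median ATAC peak. The scripts were checked on simulated data. Every one of the 12 sample columns entered a test (0 unused).

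The 9 genes and the pathway and marker lists were chosen with earlier results of these data known. All 9 genes, up to 4 genes per list with the smallest p, each promoter peak, each peak past the threshold and the 5 genes most like the member with the smallest p could be named; Osm, Socs1, Lcn2, the liver acute-phase genes and the noncoding genes were named after their values were seen. Lists are described by counts and medians. Promoter sequences are RefSeq's on GRCm38.p6 and matched all 9 genes. Alternatives were other scalings, pseudocounts and filters, a block for the replicate number, and fits without 1 library. Figures were drawn with Python 3.11.15 and matplotlib 3.10.9. Intervals cover the spread between libraries, shared across features of similar level, or, for tags, counting error only.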

Additional observations from a re-analysis of the deposited data

How the results depend on the processing

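For the RNA, the count of genes called was 0 in every alternative but median-of-ratios scaling, which called 1 (Grrp1), and 0 members were called in all of them. Over the settings tried, the log2 difference ranged from 1.38 to 1.77 for Osmr (adjusted p 0.139 to 0.642), 0.56 to 0.72 for Stat3 (0.174 to 0.801) and 0.32 to 0.62 for Il6st (0.182 to 1.0). The difference of Jak1 was -0.08 to 0.04 when 1 library was left out and turned above 0 in 4 of these settings, at 0.02 or 0.04.

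For the ATAC, peaks called higher (428 as deposited) numbered 283 with no filter, 6368 after scaling by median of ratios, 5595 after quantile normalization and 6571 in edgeR, and 90 to 1954 when 1 library was left out. Peaks called lower (704 as deposited) numbered 212, 4753, 5426 and 4783 in the same order, and 28 to 19856 when 1 library was left out. Member peaks called higher (0 as deposited) numbered 19 after scaling by median of ratios, 17 after quantile normalization and 19 in edgeR, and 0 to 8 when 1 library was left out; those called lower (2 as deposited) numbered 7, 10 and 7, 1 with no filter, and 0 to 28 when 1 library was left out. Added after the data were seen, median-of-ratios scaling without control 1 called 5618 peaks higher and 3857 lower, with 16 and 7 members. The fit without control 2 gave the 28 lower. Relative to the median peak, differences near 0 changed sign with quantile normalization at Il6 +10 (0.04), Lif +32977 (0.05), Il6st +44 (0.06) and Stat3 -52 (0.04), without C26 replicate 3 at Il6 +10 (0.03, in a range of -0.18 to 0.03 when 1 library was left out) and without control replicate 3 at Il6st +44 (0.04, in a range of -0.19 to 0.04). The cause of these changes was not tested.

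No pairing by replicate number was seen (correlations of -0.09, 0.6 and -0.6 between same-numbered RNA libraries, and -0.02, 0.01 and -0.02 in the ATAC). With 3 libraries per group, taken as deviations from the group mean, these correlations cannot exclude a pairing. With the replicate number as a block, 0 genes, and 415 peaks higher and 656 lower, were called, with 0 and 2 members; with scaling and the block, 6364 and 4610, with 19 and 7 members. Depth limits Il6 and Lif in the RNA. A motif search in the peaks was not run, since no genome was used here.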
